A study of Mus musculus with 15 samples.

Results

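The collagen genes of mouse cardiac colony-forming fibroblast cultures were examined in 15 Affymetrix whole-transcript arrays. Members were taken by symbol (Col, a number, a, a number) on array rows that named 1 gene, and for Col6a5 and Col6a6, each with 2 rows, the brighter row was kept. All 44 mouse collagen genes in the RefSeq table were found this way, among 19938 genes measured. Textbook structure placed 11 with the fibrillar collagens, 6 with the basement membrane collagens (type IV), 9 with the FACIT group (fibril-associated collagens with interrupted triple helices) and 18 with other types.

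The cultures are cardiac colony forming units - fibroblast, cCFU-F, which are adherent stromal colonies grown from sorted heart cells. All were grown from C57BL/6 mice 12 weeks of age, labelled male, after sorting for SCA1 and PDGFRα and against the endothelial protein CD31. Each group has 3 arrays: untreated large colonies at passage 5 (large P5), untreated large colonies at passage 15 (large P15), untreated small colonies at passage 5 (small P5), and small colonies given PDGF-AB at 50 ng/ml at passage 5 (treated P5) or passage 15 (treated P15). PDGF-AB is a heterodimer of platelet-derived growth factor chains, a mitogen for stromal cells. No untreated small colonies at passage 15 and no treated large colonies were analysed here, so colony size and PDGF-AB cannot be told apart at passage 15. A PDGF receptor inhibitor named in the treatment protocol is on no array label. The labels do not tell if replicate arrays are separate animals, separate cultures or repeats of the same RNA, and the tests therefore speak only of variation among arrays, part of which could be technical.

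Collagens are trimers wound from alpha chains, some built from a single kind of chain and some from chains of 2 or 3 genes. Fibrillar collagens carry the tensile load of the heart's interstitium, FACIT collagens coat the fibrils, type IV collagens form the sheet under endothelium and around muscle cells, and type VI collagen forms beaded filaments close to the cell surface. Fibroblasts are the main source of fibrillar collagen in the heart, and the chains are folded, hydroxylated and trimmed by shared enzymes before they are crosslinked.

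Promoter sequence is shown for 4 collagens whose levels moved by at least 1 log2 unit between groups and which differ in the sequence before their start. It is the 250 bases upstream of the start in RefSeq, on mouse build GRCm38.p6 and in the direction of the gene. Capitals mark the TATA box motif TATAAA, the motif bound by NF-Y, which is CCAAT, and the GC box motif GGGCGG, each on either strand, so that a GC box on the opposite strand is printed as CCGCCC. No capitals overlap between motifs.
Col1a2, chr6:4505368-4505617, plus strand: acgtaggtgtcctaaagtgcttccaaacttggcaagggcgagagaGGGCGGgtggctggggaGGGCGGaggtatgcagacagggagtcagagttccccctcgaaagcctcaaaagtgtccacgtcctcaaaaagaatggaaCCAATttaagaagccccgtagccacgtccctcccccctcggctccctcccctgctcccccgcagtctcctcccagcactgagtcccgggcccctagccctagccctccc
Col3a1, chr1:45311288-45311537, plus strand: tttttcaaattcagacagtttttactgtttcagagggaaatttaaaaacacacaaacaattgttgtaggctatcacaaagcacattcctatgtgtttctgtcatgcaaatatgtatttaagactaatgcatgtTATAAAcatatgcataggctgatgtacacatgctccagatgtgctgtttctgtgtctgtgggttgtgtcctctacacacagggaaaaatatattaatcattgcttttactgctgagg
Col8a1, chr16:57754738-57754987, minus strand: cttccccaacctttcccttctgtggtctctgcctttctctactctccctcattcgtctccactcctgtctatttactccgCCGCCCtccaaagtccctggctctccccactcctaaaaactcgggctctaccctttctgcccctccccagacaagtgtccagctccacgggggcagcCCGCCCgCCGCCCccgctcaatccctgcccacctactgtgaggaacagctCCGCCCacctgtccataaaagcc
Col10a1, chr10:34389731-34389980, plus strand: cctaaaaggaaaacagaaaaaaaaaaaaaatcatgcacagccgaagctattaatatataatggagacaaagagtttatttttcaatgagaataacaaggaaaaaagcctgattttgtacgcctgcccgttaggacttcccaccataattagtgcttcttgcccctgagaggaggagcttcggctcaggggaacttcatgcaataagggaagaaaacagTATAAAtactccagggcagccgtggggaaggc
The Col1a2 window held CCAAT with its first base 109 bases before the start and GGGCGG at 205 and 188. In Col3a1 there was a single TATAAA at 117, in Col10a1 a single TATAAA at 32, and in Col8a1 GGGCGG at 170, 73, 66 and 23. Windows were listed for 35 of the 44 collagens (38 windows). TATAAA was in 13.2% of them and in 12.4% of all 32851 promoter windows of this length, CCAAT in 34.2% and 33.8%, and GGGCGG in 57.9% and 32.7%. These matches describe letters in a window and were not tested for any role.

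Values are log2 intensities, so a difference of 1 is a 2-fold change. Array medians ran from 5.59 to 5.72, and arrays correlated at 0.997 to 0.998 within groups and at 0.958 to 0.991 between groups. The X-inactivation transcript Xist measured 8.93 to 10.88 while 6 Y-linked genes measured 1.86 to 3.42 in all 15 arrays, which goes against the label male in every group. The arrays have no detection calls in the deposited table, so a level of 4.89, the 95th percentile of 1027 olfactory receptor genes, served as a reference for background. Only Col19a1 had group means below it, and it was above it at treated P15 alone.

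Markers of the labelled cell type and of other cell types were read on the same arrays. Of 12 fibroblast markers 11 or 12 were above background in every group. The log2 of their summed intensities was 14.80 to 14.85 at large P5, 14.70 to 14.75 at large P15, 14.78 to 14.79 at small P5, 14.66 to 14.69 at treated P5 and 14.41 to 14.42 at treated P15. That sum rests mostly on the bright genes Fn1 and Vim, and other members moved with the groups. Of the 12, 4 were higher and 4 lower in large than in small colonies at passage 5, 1 rose and 5 fell with PDGF-AB, 5 rose and 4 fell with passage in large colonies, and 3 rose and 6 fell with passage in treated small colonies. Of all genes, 18.2% were higher and 18.0% lower in large than in small colonies, and 10.7% rose and 18.2% fell with PDGF-AB. With passage 17.4% of all genes rose and 18.7% fell in large colonies, and 24.6% rose and 21.4% fell in treated small colonies. In the order of groups given above, Pdgfra, the gene of the sorted receptor, averaged 6.58, 8.84, 6.66, 6.28 and 6.63. Thy1, a surface glycoprotein gene of many stromal cells, averaged 10.33, 10.63, 5.11, 5.19 and 5.49. The matrix gene Postn averaged 8.51, 9.86, 12.14, 11.63 and 11.34, the proteoglycan gene Lum 9.38, 9.90, 8.94, 7.26 and 5.56, and the transcription factor gene Tcf21 4.70, 4.65, 8.38, 9.56 and 4.93. The part of these differences in the collagen results was not tested. Pecam1, which encodes CD31, stayed under the background level in all 5 groups, as did the leukocyte gene Ptprc and the epithelial gene Epcam. Other members of their lists did not. By group, 4 to 8 of 12 endothelial, 7 or 8 of 12 leukocyte and 3 to 6 of 7 epithelial markers were above background. The same held for 5 or 6 of 10 cardiomyocyte, 7 or 8 of 8 epicardial and 2 to 4 of 8 cartilage markers. For smooth muscle and pericyte markers (12 genes, 9 to 11 above background) the log2 of summed intensities was 13.50 at large P5, 13.59 to 13.63 at large P15, 12.82 to 12.85 at small P5, 13.41 to 13.45 at treated P5 and 12.97 to 13.01 at treated P15. Acta2 averaged 12.58, 12.59, 12.32, 12.73 and 12.36. Of these 12 smooth muscle and pericyte markers, 9 were higher and 2 lower in large than in small colonies at passage 5, and 7 rose and 1 fell with PDGF-AB. With passage 5 rose and 3 fell in large colonies, and 2 rose and 5 fell in treated small colonies. The part of these markers in the collagen differences was not tested. In bulk RNA, fewer cells of a type and less RNA per cell cannot be told apart.

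Most of the movement lay in a minority of the genes. In 15 of the 44 collagens the highest and lowest group means were at least 1 log2 unit apart, and in the other 29 they were closer. The 15 are Col1a1, Col1a2, Col2a1, Col3a1, Col5a2 and Col11a1 among the fibrillar genes, Col4a2 of the basement membrane, the FACIT genes Col12a1 and Col14a1, and Col6a1, Col6a2, Col6a3, Col8a1, Col10a1 and Col28a1 of the other types.

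**Figure D1:**
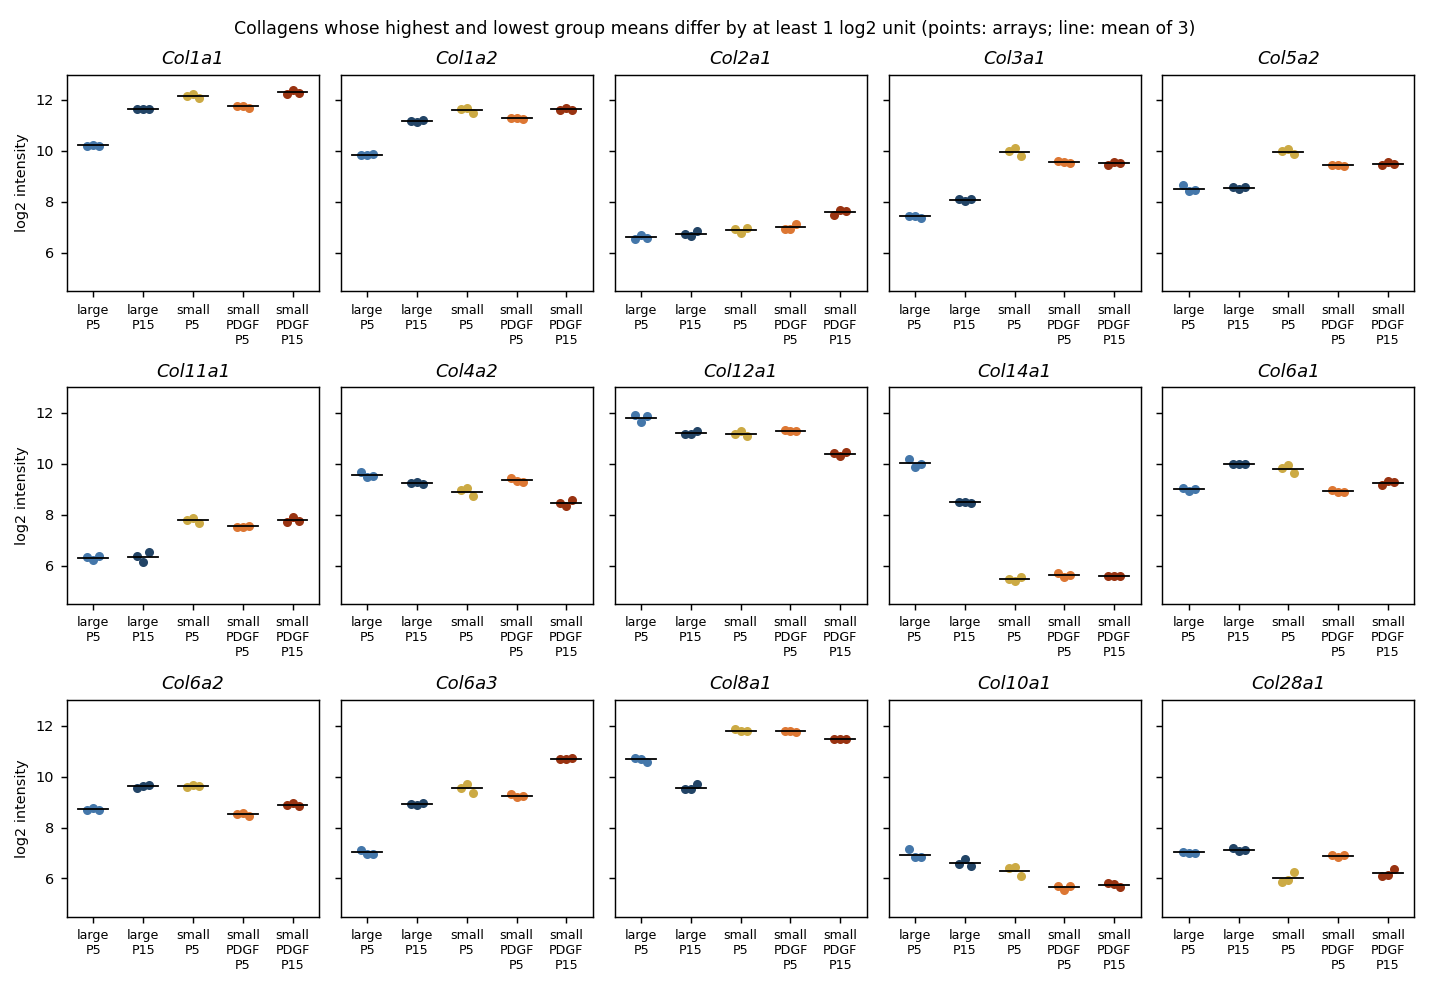
Log2 intensity (vertical axis, the same in every panel) of the 15 collagens whose group means span at least 1 unit, in 5 groups of 3 arrays; points are arrays and lines are group means. Col14a1 falls from a mean of 10.01 at large P5 to 5.47 at small P5, while Col3a1 runs the other way, from 7.42 to 9.97.

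Calls were made with limma across all 19938 genes with Benjamini-Hochberg adjustment at 0.05, and many genes of every kind passed, so the collagen counts are read beside that background. Between large and small untreated colonies at passage 5, 8 collagens were higher and 13 lower in large colonies (36.2% of all genes were called, 18.2% higher and 18.0% lower). With PDGF-AB in small colonies at passage 5, 6 rose and 9 fell (28.9% of all genes called, 10.7% up and 18.2% down). From passage 5 to 15, 8 rose and 9 fell in untreated large colonies (36.1%, 17.4% up and 18.7% down), and 27 rose and 6 fell in treated small colonies (46.0%, 24.6% up and 21.4% down). At passage 15, 35 were higher and 8 lower in treated small than in untreated large colonies (53.4%, 29.2% higher and 24.2% lower). The difference between the passage changes passed for 35, 24 more positive in treated small colonies and 11 more negative (34.4%, 18.6% and 15.9%). In the first 3 of these comparisons the share of collagens called was 47.7%, 34.1% and 38.6%, the last of these closest to its background. It was 75%, 97.7% and 79.5% in the last 3. Changes of at least 2-fold were called for 8, 1, 6, 1 and 5 collagens in the 5 comparisons between groups, against 3.93%, 1.39%, 3.77%, 5.26% and 4.64% of all genes. Comparisons that use the same group share its arrays, so their values stand side by side and are not independent.

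**Figure D2:**
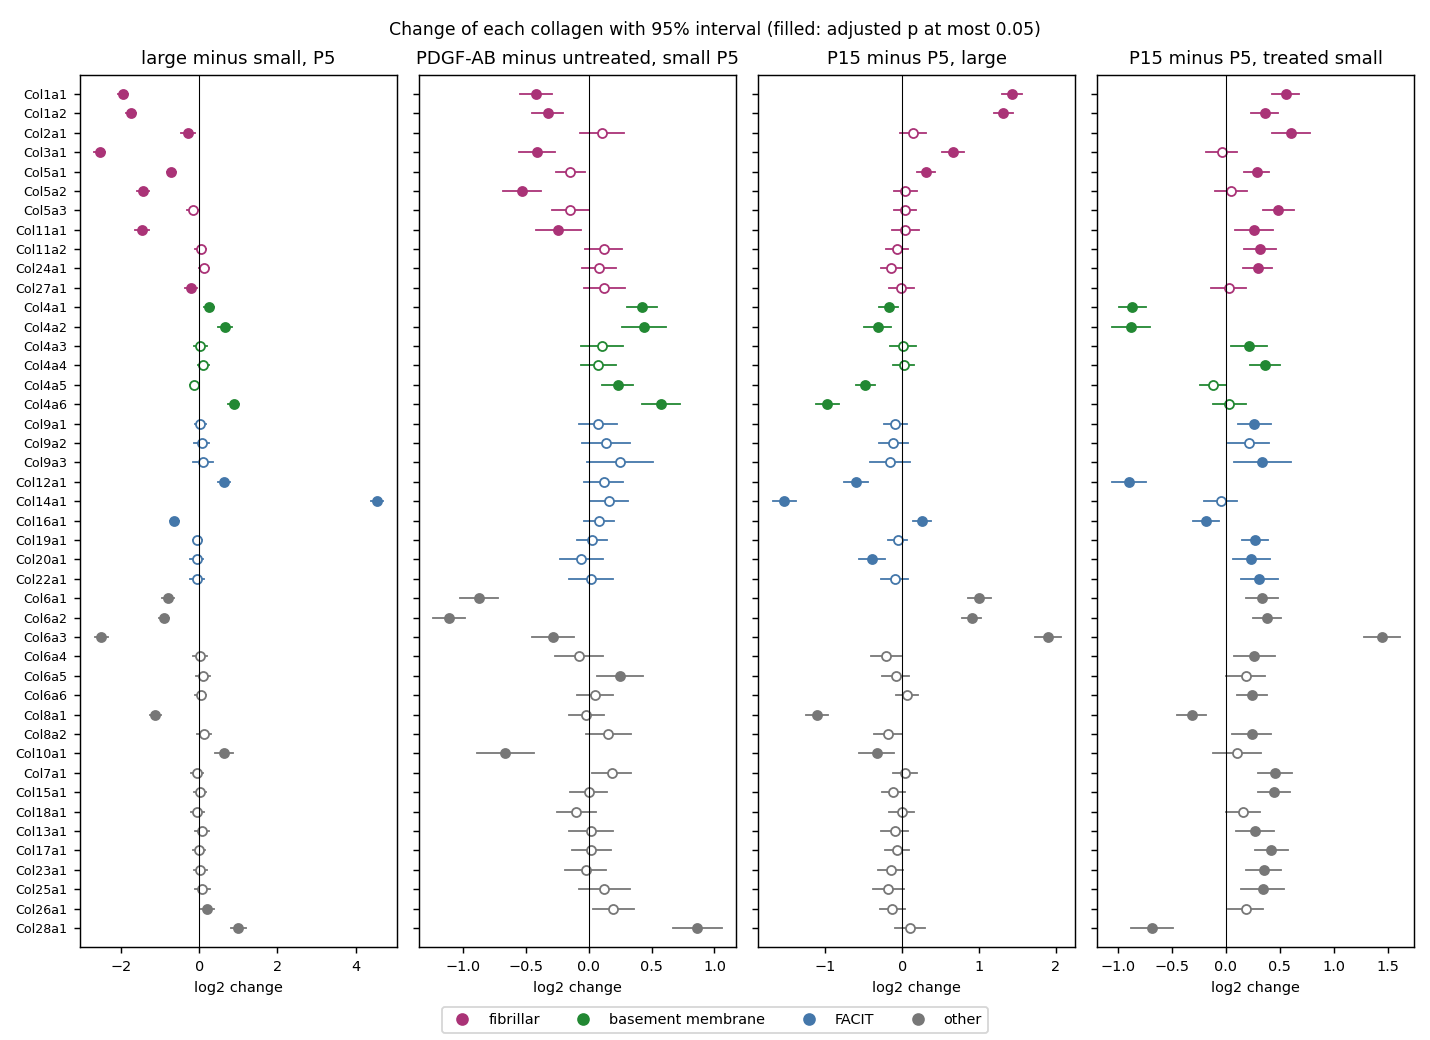
Log2 change (horizontal axes, each panel on its own scale) of all 44 collagens with 95% intervals in 4 comparisons, coloured by class; filled points passed adjusted p 0.05. In large against small colonies 8 of 11 fibrillar genes were lower and 0 higher, and with PDGF-AB 4 of 6 basement membrane genes rose and 0 fell.

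The fibrillar collagens were lower in large than in small colonies. At passage 5, 8 of 11 were lower in large colonies and 0 higher (18.0% and 18.2% of all genes), with a median change of -0.72 against 0.03 over all genes. With PDGF-AB 5 fell and 0 rose (median -0.15 against 0.02, with 18.2% of all genes falling). With passage 4 rose and 0 fell in large colonies (17.4% of all genes rose), and 8 rose and 0 fell in treated small colonies (24.6% rose). At passage 15 all 11 were higher in treated small than in untreated large colonies (median 0.55 against 0.07, with 29.2% of all genes higher). These rises were not particular to fibrillar genes. At passage 15, 7 of 9 FACIT genes were higher and 2 lower, and 13 of 18 other types were higher and 4 lower. With passage in treated small colonies 5 FACIT genes rose and 2 fell, and 12 other types rose and 2 fell. The FACIT rises were 3 with median centring, with cyclic loess, or without treated P5 array 1 or 2.

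Type I collagen, the bulk fibre of the interstitium, is built from Col1a1 and Col1a2. Col1a1 measured 10.20, 10.24 and 10.20 at large P5, 11.64, 11.63 and 11.65 at large P15, 12.16, 12.24 and 12.08 at small P5, 11.77, 11.77 and 11.69 at treated P5, and 12.23, 12.40 and 12.26 at treated P15. Large P5 cultures were far below every other group, and the small P5 and treated P15 arrays overlapped. Large colonies at passage 5 had 3.86-fold less Col1a1 than small colonies (log2 change -1.95, SE 0.0595, adjusted p = 1.0e-13). From there it rose 2.69-fold by passage 15 (log2 change 1.43, SE 0.0595, adjusted p = 7.1e-12). In small colonies PDGF-AB lowered it 1.34-fold (log2 change -0.42, SE 0.0595, adjusted p = 5.6e-05), and passage under PDGF-AB raised it 1.47-fold (log2 change 0.55, SE 0.0595, adjusted p = 8.0e-07).

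Its partner Col1a2 measured 9.86, 9.83 and 9.88 at large P5, 11.18, 11.12 and 11.22 at large P15, 11.64, 11.69 and 11.49 at small P5, 11.31, 11.29 and 11.25 at treated P5, and 11.61, 11.68 and 11.62 at treated P15. The order of the groups was the same as for Col1a1, again with overlap between small P5 and treated P15 only. The log2 changes of Col1a2 were -1.75 for large minus small colonies (SE 0.0587, adjusted p = 3.5e-13), -0.33 for PDGF-AB (SE 0.0587, adjusted p = 4.8e-04) and 1.32 for passage in large colonies (SE 0.0587, adjusted p = 1.7e-11). Passage in treated small colonies gave 0.36 (SE 0.0587, adjusted p = 8.2e-05). The passage gain was thus smaller in treated small than in large colonies for both chains, by 0.87 for Col1a1 (95% interval of the difference -1.05 to -0.70, adjusted p = 5.6e-07) and by 0.96 for Col1a2 (-1.13 to -0.78, adjusted p = 1.6e-07).

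Type III collagen is a homotrimer of the Col3a1 product, found with type I in extensible tissue and vessel walls. Col3a1 measured 7.43, 7.45 and 7.38 at large P5, 8.12, 8.02 and 8.12 at large P15, 9.99, 10.10 and 9.81 at small P5, 9.60, 9.55 and 9.52 at treated P5, and 9.46, 9.55 and 9.54 at treated P15. All large arrays lay below all small arrays, with more than 1 unit between the highest large and the lowest small array. The gene was 5.84-fold lower in large than in small colonies at passage 5 (log2 change -2.55, SE 0.0673, adjusted p = 1.8e-14) and at passage 15 treated small colonies were 2.69-fold above large ones (log2 change 1.43, SE 0.0673, adjusted p = 2.6e-11). PDGF-AB lowered it 1.33-fold (log2 change -0.41, SE 0.0673, adjusted p = 2.0e-04). Passage raised it by 0.67 in large colonies (SE 0.0673, adjusted p = 5.5e-07), while treated small colonies changed by -0.04 (95% interval -0.18 to 0.10, adjusted p = 0.668).

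Type V collagen seeds type I fibrils and is made from Col5a1 with Col5a2. Col5a2 lies next to Col3a1 on chromosome 1, with 0 protein-coding genes between them. It measured 8.66, 8.41 and 8.48 at large P5, 8.60, 8.49 and 8.59 at large P15, 9.98, 10.06 and 9.87 at small P5, 9.45, 9.45 and 9.41 at treated P5, and 9.43, 9.54 and 9.47 at treated P15. Large arrays at either passage were below all small arrays, and treated arrays were below the untreated small arrays. Col5a2 was 2.73-fold lower in large colonies (log2 change -1.45, SE 0.0702, adjusted p = 4.7e-11) and fell 1.44-fold with PDGF-AB (log2 change -0.53, SE 0.0702, adjusted p = 2.7e-05). Its passage changes were 0.04 in large colonies (95% interval -0.11 to 0.19) and 0.05 in treated small colonies (-0.10 to 0.19), neither of them called.

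Col5a1 measured 7.89, 7.82 and 7.85 at large P5, 8.20, 8.08 and 8.19 at large P15, 8.58, 8.63 and 8.50 at small P5, 8.43, 8.43 and 8.42 at treated P5, and 8.72, 8.71 and 8.70 at treated P15. The 5 groups did not overlap, but they spanned less than 1 unit. Its changes were -0.72 for large minus small colonies (SE 0.0536, adjusted p = 1.3e-08), 0.31 for passage in large colonies (SE 0.0536, adjusted p = 2.0e-04) and 0.28 for passage in treated small colonies (SE 0.0536, adjusted p = 3.4e-04). With PDGF-AB the value was -0.15 (95% interval -0.26 to -0.03, adjusted p = 0.051), which missed the threshold.

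Type XI collagen does in cartilage what type V does elsewhere, and Col11a1 encodes a chain of it. Col11a1 measured 6.33, 6.21 and 6.36 at large P5, 6.36, 6.16 and 6.51 at large P15, 7.77, 7.89 and 7.68 at small P5, 7.53, 7.53 and 7.55 at treated P5, and 7.71, 7.91 and 7.76 at treated P15. Every large array was below every small array by more than 1 unit. It was 2.78-fold lower in large colonies at passage 5 (log2 change -1.48, SE 0.0848, adjusted p = 4.2e-10) and at passage 15 treated small colonies were 2.73-fold above large ones (log2 change 1.45, SE 0.0848, adjusted p = 4.5e-10). The fall with PDGF-AB was small, -0.24 (SE 0.0848, adjusted p = 0.0423), and the call was lost without untreated small array 1 or 2 or any of treated P5 arrays 1, 2 and 3 (adjusted p = 0.0844 to 0.175). Passage in treated small colonies gave 0.26 (SE 0.0848, adjusted p = 0.0196), a call lost without array 2 of treated P5 or array 2 of treated P15 (adjusted p up to 0.0968).

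Col2a1, the cartilage collagen, was at a level where treated P15 stood apart. It measured 6.52, 6.69 and 6.59 at large P5, 6.72, 6.65 and 6.84 at large P15, 6.93, 6.76 and 6.99 at small P5, 6.93, 6.94 and 7.13 at treated P5, and 7.48, 7.69 and 7.64 at treated P15. The 3 treated P15 arrays were above all other arrays, and neighbouring groups among the rest overlapped in part. Its changes were -0.29 for large minus small colonies (SE 0.0814, adjusted p = 0.00872), 0.60 for passage in treated small colonies (SE 0.0814, adjusted p = 1.1e-05) and 0.86 for treated small against large colonies at passage 15 (SE 0.0814, adjusted p = 2.0e-07). Col5a3, another chain of type V, measured 5.89, 6.15 and 6.15 at large P5, 6.11, 6.11 and 6.08 at large P15, 6.19, 6.21 and 6.28 at small P5, 6.14, 6.06 and 6.05 at treated P5, and 6.51, 6.57 and 6.61 at treated P15. Its treated P15 arrays were above all others too. It rose by 0.48 with passage in treated small colonies (SE 0.0676, adjusted p = 1.6e-05). Col11a2, Col24a1 and Col27a1 had group means between 5.27 and 6.83, and Col27a1 alone was called between large and small colonies (-0.22, adjusted p = 0.0368), a call lost without large P5 array 1 or small P5 array 2 or 3 (adjusted p = 0.0834 to 0.178).

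The basement membrane collagens that were called moved in the opposite direction to the fibrillar ones for colony size, for PDGF-AB and for passage in large colonies. In large colonies at passage 5, 3 of 6 were higher than in small colonies and 0 lower (18.2% and 18.0% of all genes). With PDGF-AB 4 rose and 0 fell (median 0.33 against 0.02 over all genes; 10.7% of all genes rose). With passage in large colonies 4 fell and 0 rose (median -0.25 against -0.04; 18.7% of all genes fell). In treated small colonies 2 rose and 2 fell with passage (24.6% and 21.4% of all genes), and with median centring or cyclic loess 1 of those rises, that of Col4a3, lost its call.

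Col4a1 and Col4a2 encode the chains of the widespread type IV trimer and are transcribed in opposite directions from starts 21 bases apart on chromosome 8. Col4a1 measured 8.91, 8.85 and 8.82 at large P5, 8.71, 8.64 and 8.72 at large P15, 8.62, 8.70 and 8.54 at small P5, 9.11, 9.02 and 9.00 at treated P5, and 8.15, 8.18 and 8.19 at treated P15. Treated P15 arrays were below all others, and the treated P5 arrays were the highest. PDGF-AB raised Col4a1 1.34-fold (log2 change 0.42, SE 0.0573, adjusted p = 3.4e-05) and passage under PDGF-AB lowered it 1.82-fold (log2 change -0.87, SE 0.0573, adjusted p = 2.0e-09). Large colonies were higher than small by 0.24 (SE 0.0573, adjusted p = 0.00287). The fall with passage in large colonies was -0.18 (SE 0.0573, adjusted p = 0.0231), and that call was lost without large P5 array 1 or large P15 array 2 (adjusted p = 0.0815 and 0.0879).

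Col4a2 measured 9.67, 9.47 and 9.52 at large P5, 9.25, 9.27 and 9.20 at large P15, 8.96, 9.04 and 8.72 at small P5, 9.43, 9.31 and 9.29 at treated P5, and 8.46, 8.35 and 8.58 at treated P15. As with its partner, treated P15 was the lowest group, and here large P5 was the highest. It rose 1.36-fold with PDGF-AB (log2 change 0.44, SE 0.0831, adjusted p = 7.7e-04) and fell 1.84-fold with passage in treated small colonies (log2 change -0.88, SE 0.0831, adjusted p = 1.7e-07). In large colonies it was 1.57-fold above small colonies (log2 change 0.65, SE 0.0831, adjusted p = 7.7e-06) and fell by 0.32 with passage (SE 0.0831, adjusted p = 0.00604).

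Col4a5 and Col4a6 are neighbours on the X chromosome, also transcribed in opposite directions but from starts farther apart. Their products form the type IV trimer of smooth muscle and some epithelia. Col4a6 measured 6.74, 6.46 and 6.64 at large P5, 5.70, 5.60 and 5.62 at large P15, 5.71, 5.80 and 5.71 at small P5, 6.40, 6.31 and 6.23 at treated P5, and 6.38, 6.35 and 6.31 at treated P15. Large P15 and small P5 arrays were low, the treated arrays at both passages intermediate and large P5 high. It was 1.83-fold higher in large than in small colonies (log2 change 0.87, SE 0.0702, adjusted p = 3.2e-08), rose 1.49-fold with PDGF-AB (log2 change 0.57, SE 0.0702, adjusted p = 1.2e-05) and fell 1.97-fold with passage in large colonies (log2 change -0.97, SE 0.0702, adjusted p = 8.7e-09). In treated small colonies passage changed it by 0.03 (95% interval -0.12 to 0.18).

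Col4a5 measured 7.18, 7.17 and 7.23 at large P5, 6.74, 6.66 and 6.75 at large P15, 7.33, 7.38 and 7.25 at small P5, 7.55, 7.59 and 7.51 at treated P5, and 7.46, 7.34 and 7.48 at treated P15. Large P15 was its lowest group and treated P5 its highest. It fell by 0.48 with passage in large colonies (SE 0.0578, adjusted p = 4.4e-06) and rose by 0.23 with PDGF-AB (SE 0.0578, adjusted p = 0.00658), while large and small colonies at passage 5 differed by -0.13 (95% interval -0.25 to -0.01, adjusted p = 0.0989). Col4a3 and Col4a4, the chains of the kidney glomerulus, had group means of 5.29 to 5.73 and were called only in comparisons with treated P15. With passage in treated small colonies Col4a4 rose by 0.36 (SE 0.0650, adjusted p = 2.3e-04) and Col4a3 by 0.22 (adjusted p = 0.033), the latter lost without treated P5 array 1 or 2 or treated P15 array 2 or 3 (adjusted p = 0.0829 to 0.124).

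Among the FACIT collagens, Col14a1 had the widest range of any collagen here. Type XIV collagen binds the surface of fibrils and has a part in their growth in tendon, skin and heart. It measured 10.17, 9.88 and 9.99 at large P5, 8.50, 8.50 and 8.44 at large P15, 5.47, 5.38 and 5.57 at small P5, 5.72, 5.56 and 5.61 at treated P5, and 5.59, 5.58 and 5.57 at treated P15. Large P5 arrays were at or above 9.88, large P15 between 8.44 and 8.50, and the 9 small arrays between 5.38 and 5.72. At passage 5 it was 23.3-fold higher in large colonies (log2 change 4.54, SE 0.0723, adjusted p = 3.9e-17). With passage it fell 2.89-fold in large colonies (log2 change -1.53, SE 0.0723, adjusted p = 3.6e-11), and at passage 15 it was still 7.44-fold lower in treated small than in large colonies (log2 change -2.90, SE 0.0723, adjusted p = 5.8e-15). PDGF-AB changed it by 0.16 in small colonies (95% interval 0.01 to 0.31, adjusted p = 0.112) and passage by -0.05 there (-0.20 to 0.11), neither of them called. With cyclic loess normalization between arrays the PDGF-AB change of Col14a1 was called (0.22, adjusted p = 0.0354).

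Type XII collagen, the FACIT member of dense connective tissue, fell with passage in both kinds of culture. Col12a1 measured 11.92, 11.66 and 11.86 at large P5, 11.17, 11.16 and 11.30 at large P15, 11.18, 11.28 and 11.09 at small P5, 11.33, 11.30 and 11.27 at treated P5, and 10.42, 10.31 and 10.46 at treated P15. Large P5 was the highest group, treated P15 the lowest, and the other 3 lay between 11.09 and 11.33. It fell by 0.60 with passage in large colonies (SE 0.0743, adjusted p = 5.3e-06) and by 0.90 in treated small colonies (SE 0.0743, adjusted p = 3.1e-08). The difference between those falls was -0.30 (adjusted p = 0.0369), and that call was lost when any of 6 arrays was left out (large P5 array 2, large P15 array 3, treated P5 arrays 1 and 2, treated P15 arrays 1 and 2; adjusted p = 0.0501 to 0.0988). In large colonies at passage 5 Col12a1 was 1.54-fold above small colonies (log2 change 0.63, SE 0.0743, adjusted p = 3.4e-06).

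Of the other FACIT genes, Col16a1 and Col20a1 moved in opposite directions with passage in the 2 kinds of culture. Col16a1 measured 6.10, 6.27 and 6.18 at large P5, 6.46, 6.40 and 6.48 at large P15, 6.81, 6.86 and 6.79 at small P5, 6.90, 6.87 and 6.94 at treated P5, and 6.74, 6.72 and 6.70 at treated P15. Large P5 was its lowest group and treated P5 its highest. It rose by 0.26 in large colonies (SE 0.0558, adjusted p = 0.00123) and fell by 0.18 in treated small colonies (SE 0.0558, adjusted p = 0.0126), a difference of -0.44 (SE 0.0789, adjusted p = 3.6e-04). Col20a1 measured 6.07, 6.12 and 6.20 at large P5, 5.76, 5.70 and 5.76 at large P15, 6.36, 6.12 and 6.12 at small P5, 6.02, 6.12 and 6.28 at treated P5, and 6.50, 6.31 and 6.32 at treated P15. Its 3 large P15 arrays were below all others. It fell by 0.39 in large colonies (SE 0.0805, adjusted p = 9.4e-04) and rose by 0.23 in treated small colonies (SE 0.0805, adjusted p = 0.0256), a difference of 0.62 (SE 0.114, adjusted p = 4.8e-04). The rise in treated small colonies was lost without treated P5 array 1 or 2 or treated P15 array 1 (adjusted p = 0.0684 to 0.124). With PDGF-AB at passage 5, 0 of the 9 FACIT genes were called by limma, where 28.9% of all genes were.

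Type VI collagen forms a filament network around cells, and its main trimer takes a chain each from Col6a1, Col6a2 and Col6a3. Col6a1 and Col6a2 are neighbours on chromosome 10 and were high and low in much the same groups. Col6a1 measured 9.04, 8.92 and 9.01 at large P5, 9.99, 9.99 and 10.01 at large P15, 9.82, 9.94 and 9.64 at small P5, 8.97, 8.90 and 8.91 at treated P5, and 9.16, 9.34 and 9.28 at treated P15. Col6a2 measured 8.67, 8.77 and 8.70 at large P5, 9.55, 9.63 and 9.67 at large P15, 9.58, 9.68 and 9.62 at small P5, 8.54, 8.58 and 8.43 at treated P5, and 8.88, 8.96 and 8.85 at treated P15. For both genes large P15 and small P5 were the high groups, overlapping for Col6a2 only, large P5 and treated P5 were the low ones, and treated P15 lay between. PDGF-AB lowered Col6a2 2.16-fold (log2 change -1.11, SE 0.0600, adjusted p = 6.9e-10), the only collagen changed at least 2-fold by it, and Col6a1 1.83-fold (log2 change -0.87, SE 0.0710, adjusted p = 1.2e-07). With passage in large colonies they rose by 0.90 (SE 0.0600, adjusted p = 3.0e-09) and 1.00 (SE 0.0710, adjusted p = 6.9e-09). Large colonies at passage 5 were lower than small ones by 0.91 for Col6a2 (SE 0.0600, adjusted p = 2.4e-09) and 0.81 for Col6a1 (SE 0.0710, adjusted p = 1.0e-07).

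Col6a3, the largest chain of the trimer, measured 7.13, 6.97 and 6.96 at large P5, 8.93, 8.87 and 8.95 at large P15, 9.55, 9.72 and 9.34 at small P5, 9.31, 9.22 and 9.23 at treated P5, and 10.68, 10.70 and 10.72 at treated P15. It was highest in treated P15 and lowest in large P5, and no groups overlapped. It rose 3.73-fold with passage in large colonies (log2 change 1.90, SE 0.0790, adjusted p = 7.1e-12) and 2.72-fold in treated small colonies (log2 change 1.45, SE 0.0790, adjusted p = 1.7e-10). At passage 5 it was 5.72-fold lower in large than in small colonies (log2 change -2.52, SE 0.0790, adjusted p = 1.5e-13). At passage 15 it was 3.44-fold higher in treated small than in large colonies (log2 change 1.78, SE 0.0790, adjusted p = 1.2e-11), where Col6a1 and Col6a2 were lower (-0.74 and -0.72, adjusted p = 2.6e-07 and 4.4e-08). The fall with PDGF-AB was -0.28 (SE 0.0790, adjusted p = 0.013), and the call was lost without small P5 array 2 (adjusted p = 0.0825). Col6a4, Col6a5 and Col6a6, chains of lesser known trimers, had group means of 5.09 to 6.58. Col6a5 measured 5.13, 5.32 and 5.31 at large P5, 4.99, 5.25 and 5.25 at large P15, 5.10, 5.07 and 5.28 at small P5, 5.41, 5.33 and 5.46 at treated P5, and 5.62, 5.67 and 5.47 at treated P15, all within 1 log2 unit of the background level. Its small P5 and treated P5 arrays lay close together without overlapping. Of these genes only Col6a5 was called with PDGF-AB (0.25, adjusted p = 0.0388), and that call was lost without small P5 array 1 or 2 or treated P5 array 1 or 3 (adjusted p = 0.0832 to 0.143). With its 2 probe rows averaged the change was 0.14 and was not called (adjusted p = 0.121).

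The network collagens VIII and X are short chains that form hexagonal lattices. Col8a1, of vessel walls and the corneal endothelium's membrane, measured 10.75, 10.71 and 10.58 at large P5, 9.50, 9.50 and 9.72 at large P15, 11.85, 11.77 and 11.80 at small P5, 11.81, 11.79 and 11.77 at treated P5, and 11.46, 11.48 and 11.47 at treated P15. Small cultures were above large cultures in all arrays, and large P15 was the lowest group. It was 2.19-fold lower in large than in small colonies at passage 5 (log2 change -1.13, SE 0.0650, adjusted p = 4.3e-10), fell a further 2.16-fold with passage in large colonies (log2 change -1.11, SE 0.0650, adjusted p = 6.1e-10) and was 3.73-fold higher in treated small colonies at passage 15 (log2 change 1.90, SE 0.0650, adjusted p = 3.6e-13). PDGF-AB gave a change of -0.02 (95% interval -0.16 to 0.12). Its partner Col8a2 measured 5.33, 5.37 and 5.37 at large P5, 5.03, 5.19 and 5.29 at large P15, 5.11, 5.24 and 5.40 at small P5, 5.45, 5.37 and 5.39 at treated P5, and 5.64, 5.78 and 5.51 at treated P15. These levels were near background and the groups at passage 5 overlapped. Col8a2 rose by 0.24 with passage in treated small colonies (SE 0.0836, adjusted p = 0.0287), a call lost without treated P5 array 2 or 3 or treated P15 array 1 or 2 (adjusted p = 0.0586 to 0.144).

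Type X collagen marks hypertrophic cartilage. Col10a1 measured 7.15, 6.84 and 6.83 at large P5, 6.58, 6.77 and 6.47 at large P15, 6.41, 6.44 and 6.08 at small P5, 5.69, 5.56 and 5.70 at treated P5, and 5.80, 5.79 and 5.65 at treated P15. The 6 treated arrays were below the 9 untreated arrays. PDGF-AB lowered it 1.58-fold (log2 change -0.66, SE 0.106, adjusted p = 1.7e-04), and large colonies were 1.54-fold above small colonies (log2 change 0.63, SE 0.106, adjusted p = 1.6e-04). The fall with passage in large colonies was -0.33 (SE 0.106, adjusted p = 0.021), a call lost without large P5 array 1 or large P15 array 1 or 3 (adjusted p = 0.0598 to 0.111).

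Col28a1, a short-helix collagen of peripheral nerve, had the largest rise of any collagen with PDGF-AB. It measured 7.06, 6.99 and 7.01 at large P5, 7.18, 7.07 and 7.10 at large P15, 5.87, 5.93 and 6.27 at small P5, 6.91, 6.83 and 6.93 at treated P5, and 6.09, 6.15 and 6.37 at treated P15. Both large groups and treated P5 lay between 6.83 and 7.18, while small P5 and treated P15 lay between 5.87 and 6.37. It rose 1.82-fold with PDGF-AB (log2 change 0.86, SE 0.0913, adjusted p = 2.4e-06) and fell 1.61-fold with passage in treated small colonies (log2 change -0.69, SE 0.0913, adjusted p = 8.8e-06). In large colonies at passage 5 it was 1.99-fold above small colonies (log2 change 0.99, SE 0.0913, adjusted p = 1.7e-07), and passage there changed it by 0.10 (95% interval -0.10 to 0.29).

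**Figure D3:**
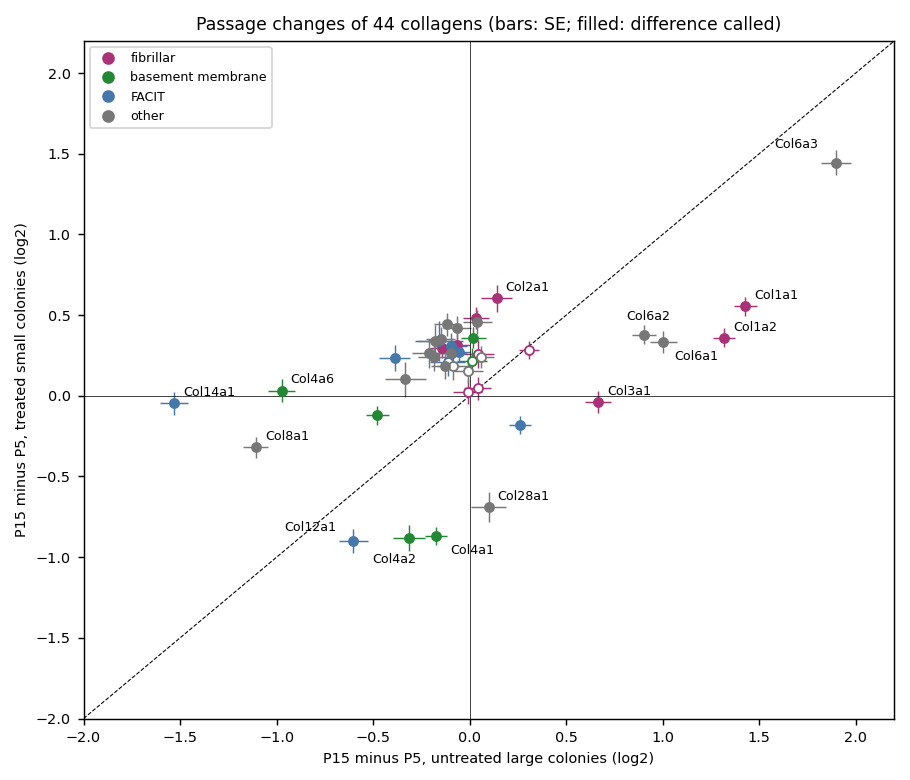
Passage change (passage 15 minus 5, log2) of each of 44 collagens in untreated large colonies (horizontal) and PDGF-AB-treated small colonies (vertical), with bars of 1 SE; filled points passed the test of the difference between both changes, and the dashed line marks equal change. Col1a1, Col1a2, Col3a1, Col6a1 and Col6a2 lie below the line, and Col14a1, Col4a6 and Col8a1 above it.

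The collagens of lower level were called mainly in comparisons with treated P15. The split was made at a mean of 7 over the 15 arrays, after the values had been seen, and put 29 collagens under it (means 4.83 to 6.97) and 15 at or above it. Of the 29, 10 averaged less than 1 log2 unit above the background level and 19 at least 1. In treated small colonies at passage 15, 26 of the 29 were higher and 2 lower than in large colonies, with a median change of 0.40. Among all 6125 genes of that range of levels 41.1% were higher and 21.3% lower, with a median of 0.15. With passage in treated small colonies 20 of the 29 rose and 2 fell (median 0.26), beside 28.4% and 18.0% of the 6125 genes (median 0.09). Between large and small colonies at passage 5 the same 29 gave 4 higher and 3 lower (median 0.03), beside 16.6% and 18.3% of the 6125 genes. With passage in large colonies 17.2% of the 6125 genes rose and 17.7% fell, while of the 29, 1 rose and 3 fell (median -0.09). That last count was 6 with median centring (median -0.14) and 5 without large P5 array 1.

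Col7a1, which forms the anchoring fibrils of skin, is an example. It measured 6.31, 6.56 and 6.51 at large P5, 6.39, 6.52 and 6.59 at large P15, 6.45, 6.45 and 6.64 at small P5, 6.68, 6.70 and 6.72 at treated P5, and 7.14, 7.19 and 7.13 at treated P15. The treated P15 arrays were above all the rest, and the rise with passage was 0.46 (SE 0.0742, adjusted p = 7.6e-05). Col15a1, a vascular multiplexin, measured 5.71, 5.70 and 5.63 at large P5, 5.53, 5.70 and 5.47 at large P15, 5.70, 5.70 and 5.62 at small P5, 5.54, 5.72 and 5.75 at treated P5, and 6.03, 6.17 and 6.14 at treated P15. Again the treated P15 arrays alone stood apart, and it rose by 0.44 with passage in treated small colonies (SE 0.0710, adjusted p = 6.5e-05). The transmembrane collagens Col13a1, Col17a1, Col23a1 and Col25a1 all rose with passage in treated small colonies (changes of 0.27 to 0.42), and 0 of the 4 were called with PDGF-AB or between large and small colonies at passage 5. The Col13a1 rise was lost without treated P5 array 1 or treated P15 array 2 (adjusted p = 0.0724 and 0.0592). The type IX chains Col9a1, Col9a2 and Col9a3, of cartilage fibril surfaces, and the minor FACIT genes Col19a1 and Col22a1 had group means of 4.69 to 6.84. Col9a1, Col9a3, Col19a1 and Col22a1 rose by 0.26, 0.34, 0.27 and 0.31 with passage in treated small colonies (adjusted p = 0.00593, 0.0352, 9.4e-04 and 0.00514). The Col9a3 call was lost without treated P5 array 1 or 2 or treated P15 array 2 or 3 (adjusted p = 0.0697 to 0.127). Col19a1 rose from below the background level of 4.89 to 5.09 at treated P15, so the size of its rise is uncertain. Col26a1 was higher in large than in small colonies by 0.20 (adjusted p = 0.0467), but their arrays overlapped and the call was lost without large P5 array 2 or 3 or small P5 array 1 or 2 (adjusted p = 0.132 to 0.210). Col18a1, the source of endostatin, was the only collagen called in none of the 6 comparisons.

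Some other sets of genes with low levels had more higher than lower calls at passage 15. The 1027 olfactory receptor genes had a median difference of 0.09 between treated small and large colonies, with 20.2% higher and 1.46% lower. Markers of endothelium (9 of 12 higher, 0 lower), cartilage (5 of 8 and 0) and epithelium (4 of 7 and 0) had no lower call in that comparison, and those of cardiomyocytes gave 3 of 10 and 0. Markers of macrophages and leukocytes gave 5 of 12 higher and 4 lower, and epicardial markers 2 of 8 higher and 3 lower (29.2% and 24.2% of all genes). The log2 of summed intensities was 8.48 to 8.62 at large P15 and 8.75 to 8.85 at treated P15 for endothelial markers. It was 8.34 to 8.44 and 8.73 to 8.93 for cartilage markers, and 8.03 to 8.13 and 8.29 to 8.38 for epithelial markers. The defining genes Pecam1 and Epcam stayed under background, while the cartilage factor gene Sox9 was at 7.27 in large P15 and 7.99 in treated P15. Under cyclic loess normalization 23 of the 29 low collagens were still higher at passage 15 and 15 of 29 rose with passage in treated small colonies, with medians of 0.30 and 0.19. It ended the passage calls of Col4a3, Col6a4, Col8a2, Col9a3 and Col20a1 in treated small colonies (adjusted p = 0.0572 to 0.164). With median centring 26 of the 29 were higher at passage 15 and 14 rose with passage in treated small colonies, with medians of 0.42 and 0.21. Median centring ended the same passage calls and those of Col11a1 and Col13a1 (adjusted p = 0.0554 to 0.0991). The part of other cell types or of array background in these small differences was not tested.

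**Figure D4:**
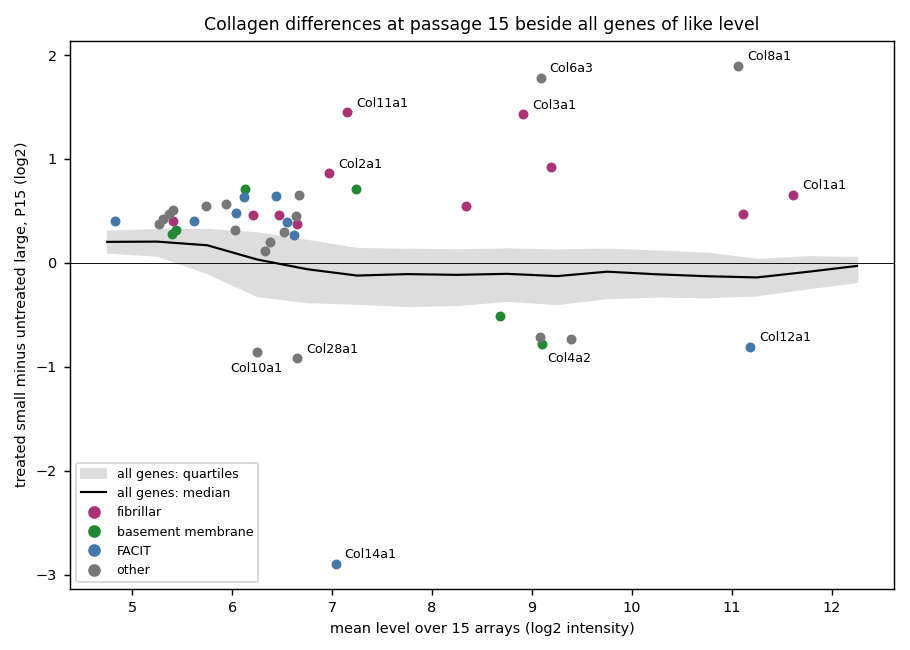
Difference between treated small and untreated large colonies at passage 15 (vertical, log2) against the mean level over 15 arrays (horizontal, log2 intensity); points are collagens by class, the line is the median and the band the quartiles of all genes in bins of level. Most collagens under a mean of 7 lie above the line (26 of 29 called higher), and those at or above 7 spread from -2.90 for Col14a1 to 1.90 for Col8a1.

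Genes that make, bind and cut collagen were read as lists, beside the share of all genes called in each comparison. That share was 18.2% higher and 18.0% lower for large against small colonies, 10.7% and 18.2% for PDGF-AB, 17.4% and 18.7% for passage in large colonies, and 24.6% and 21.4% for passage in treated small colonies. Of 21 measured genes of collagen folding and modification, 2 were higher and 12 lower in large than in small colonies at passage 5 (median -0.28 against 0.03 over all genes). Among them were the lysyl hydroxylase gene Plod2 (-0.99, adjusted p = 5.5e-09), the collagen chaperone gene Serpinh1 (-0.75, adjusted p = 3.4e-08) and Crtap of the prolyl 3-hydroxylase complex (-0.73, adjusted p = 2.7e-08). With PDGF-AB 3 rose and 8 fell (median -0.08 against 0.02), P4ha1 and P4ha2 of prolyl 4-hydroxylase among the falls (-0.46, adjusted p = 6.3e-06 and -0.48, adjusted p = 5.1e-05). Passage gave 7 rises and 8 falls in large colonies (median -0.05 against -0.04) and 1 rise and 11 falls in treated small colonies (median -0.17 against 0.05), led by Tmem38b, an endoplasmic reticulum channel gene (-1.81, adjusted p = 1.1e-11), and P3h3 (-1.23, adjusted p = 1.9e-11).

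Of 13 genes of propeptide processing and crosslinking, 2 were higher and 8 lower in large colonies at passage 5 (median -0.26 against 0.03). The crosslinking oxidase gene Loxl1 (-2.34, adjusted p = 2.4e-14) and the procollagen C-proteinase enhancer gene Pcolce2 (-2.50, adjusted p = 1.2e-12) were lower, and the C-proteinase gene Tll1 was higher (1.91, adjusted p = 7.3e-14). PDGF-AB raised 3 and lowered 5 (median -0.05 against 0.02). With passage 6 rose and 2 fell in large colonies (median 0.10 against -0.04), and 1 rose and 7 fell in treated small colonies (median -0.34 against 0.05). The N-propeptidase gene Adamts14 was the rise in the latter (0.97, adjusted p = 1.1e-08) and also rose in large colonies (1.09, adjusted p = 3.3e-09).

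Of 11 collagen receptor genes, 7 were higher and 3 lower in large colonies at passage 5 (median 0.32 against 0.03). The collagen-binding integrin genes Itga1 (0.94, adjusted p = 2.3e-06) and Itga2 (adjusted p = 5.8e-10) were higher. Itga2 averaged 6.54 in large P5 and 4.85 in small P5, below the background level of 4.89, so its difference is given as at least 3.14-fold, the large P5 level over background. In the same list Cspg4 (-0.89, adjusted p = 2.9e-06), Itga10 (-0.62, adjusted p = 3.0e-05) and the endocytic receptor gene Mrc2 (-0.31, adjusted p = 3.8e-04) were lower. PDGF-AB raised 4, Itga10 (0.62, adjusted p = 7.0e-05) and Itga11 (0.43, adjusted p = 1.5e-04) among them, and lowered 1 (median 0.13 against 0.02). With passage 2 rose and 5 fell in large colonies (median -0.14 against -0.04), and 3 rose and 6 fell in treated small colonies (median -0.28 against 0.05). In the treated small colonies Itga1 (-1.94, adjusted p = 2.0e-10) and Itga11 (-1.44, adjusted p = 2.3e-11) were among the falls. The 3 rises there were Cspg4 (1.51, adjusted p = 3.4e-09), Adgrg1 (1.18, adjusted p = 1.8e-10) and the kinase receptor gene Ddr2 (0.57, adjusted p = 7.4e-07).

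Of 12 collagen-degrading genes, 2 were higher and 7 lower in large colonies at passage 5 (median -0.44 against 0.03). Of the 2 higher, Mmp8 (0.38, adjusted p = 0.0074) was below background in both groups. PDGF-AB lowered 7 and raised 0 (median -0.21 against 0.02). The collagenase gene Mmp13 was lower in large colonies (-1.67, adjusted p = 5.6e-11) and fell with PDGF-AB from 8.20 to 4.52, which is below background, a fall of at least 9.92-fold (adjusted p = 2.8e-14). The gelatinase gene Mmp2 was lower in both too (-1.62, adjusted p = 4.9e-13 and -0.74, adjusted p = 4.4e-08). With passage 6 rose and 4 fell in large colonies (median 0.19 against -0.04), the collagenase gene Mmp13 among the rises (2.17, adjusted p = 2.2e-12). Mmp8, also of a collagenase, rose from 3.78, below background, to 6.67, which is at least 3.43-fold (adjusted p = 9.0e-13). In treated small colonies 3 rose and 4 fell with passage (median 0.01 against 0.05), Mmp2 rising (0.66, adjusted p = 4.0e-08) and the membrane collagenase gene Mmp14 falling (-0.78, adjusted p = 1.5e-08).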

How the data were processed

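Total RNA was labelled for 15 Affymetrix whole-transcript arrays, per the labels' protocols. The deposited table holds log2 intensities of 28853 rows. RMA and limma appear in the submitters' processing notes, without versions. Background correction settings and the genome build are not given in the sources used here, and scanner files were not used here. Of the rows, 21789 named 1 gene and gave 19938 genes.

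Groups came from the labels. limma 3.58.1 (R 4.3.3) was fitted to all 15 arrays with group means (10 residual and 5.80 prior degrees of freedom, median SE of a change 0.0778). Tests were moderated and 2-sided, with Benjamini-Hochberg adjustment over 19938 genes at 0.05. The fit was run on simulated data with independent noise and 200 changed genes, a setting that holds no normalization shifts between arrays. The number of arrays limits the precision. Values in every array are given for up to 6 rises and 6 falls per comparison whose arrays did not overlap, and for partners in a trimer. In each related list up to 3 genes per direction could be named. Each alternative changed 1 choice: median centring, cyclic loess, leaving out low genes, averaging probe rows, fitting the compared arrays alone, trend and robust moderation, array weights, a replicate block, and leaving out each array. The members and lists were chosen with earlier results of these data known. Same-numbered arrays were checked for pairing (deviations from group means correlated at 0.208, 0.0984 and 0.202 in large colonies across passages), and the numbers were not taken as pairs. Promoter windows are those of RefSeq on GRCm38.p6.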

Additional observations from a re-analysis of the deposited data

Results flagged for a closer look

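The change from passage 5 to passage 15 differed between PDGF-AB-treated small colonies and untreated large colonies for 35 of 44 collagens (limma, the test of the difference itself, adjusted over all genes, of which 34.4% passed). Differences are given as treated small minus large, in log2 units. Colony size and PDGF-AB cannot be told apart in them.

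The difference was negative for 11. Among fibrillar genes it was -0.87 for Col1a1, -0.96 for Col1a2 and -0.70 for Col3a1. Among type IV genes it was -0.69 for Col4a1 and -0.56 for Col4a2. It was -0.30 for Col12a1 and -0.44 for Col16a1 in the FACIT group. For type VI it was -0.67 (Col6a1), -0.52 (Col6a2) and -0.45 (Col6a3), and Col28a1 gave -0.79.

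The difference was positive for 24. The highest values were 1.49 for Col14a1 and 1.01 for Col4a6, whose falls in large colonies had no called counterpart in treated small colonies, and 0.79 for Col8a1, which fell in both. Type IV genes Col4a4 and Col4a5 gave 0.34 and 0.36. Fibrillar Col2a1, Col5a3, Col11a2 and Col24a1 gave 0.46, 0.45, 0.38 and 0.44. In the FACIT group Col9a1, Col9a3, Col19a1, Col20a1 and Col22a1 gave 0.35, 0.49, 0.33, 0.62 and 0.41, though Col19a1 was above the background level at treated P15 alone. Of the other types, Col6a4 gave 0.47, Col8a2 0.42, Col10a1 0.43, Col7a1 0.42 and Col15a1 0.56, and the transmembrane Col13a1, Col17a1, Col23a1 and Col25a1 gave 0.37, 0.48, 0.50 and 0.52, with Col26a1 at 0.31. The changes of Col16a1 and Col20a1 were called in opposite directions in the 2 kinds of culture.

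Leaving out single arrays ended 5 of these calls. They were Col9a3 (7 of 12 arrays, adjusted p = 0.0612 to 0.104), Col10a1 (6 arrays, 0.0663 to 0.0859), Col12a1 (6 arrays, 0.0501 to 0.0988), Col13a1 (4 arrays, 0.0580 to 0.0674) and Col26a1 (9 arrays, 0.0552 to 0.0910). The arrays were spread over all 4 groups. Cyclic loess normalization between arrays ended the same 5 calls and 4 more (adjusted p = 0.0540 to 0.152 over the 9). The 4 were Col4a4 (difference 0.19, adjusted p = 0.0614), Col8a2 (0.27, adjusted p = 0.0799), Col9a1 (0.22, adjusted p = 0.104) and Col19a1 (0.15, adjusted p = 0.152), each smaller by over 1.5 times than the value above. The cause was not tested.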

How the results depend on the processing

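No change of a collagen that passed the threshold turned its sign under any alternative run. The counts over the collagens tested, all 44 except with low genes left out, stayed within 1.5 times their value under each of them, while some counts over smaller sets did not. With median centring 6 in place of 3 of the 29 collagens with a mean under 7 fell with passage in large colonies (median -0.14), and 1 fibrillar gene, Col24a1, fell there. With median centring or cyclic loess 1 in place of 2 basement membrane genes and 3 in place of 5 FACIT genes rose with passage in treated small colonies. For the difference of passage changes, cyclic loess left 3 in place of 6 FACIT genes and 7 in place of 11 other types positive. Of the collagens with a mean under 7 it left 13 in place of 21 positive. With median centring, cyclic loess, low genes left out, probe rows averaged, the compared arrays alone, trend and robust moderation, array weights or the replicate block, the count higher ranged from 7 to 8 for colony size at passage 5, 8 in each for passage in large colonies, 5 to 8 for PDGF-AB, 19 to 31 for passage in treated small colonies, 24 to 35 at passage 15 and 16 to 25 for the difference of passage changes. The counts lower ranged from 12 to 15, 8 to 12, 8 to 10, 6 to 7, 8 in each and 10 to 11 in the same order. With low genes left out, collagens under the median level of all genes (6.02) were not tested. The lowest counts higher of 19 and 24 came from that setting, where an untested gene cannot be called. Leaving out 1 array at a time gave 7 to 9 higher and 12 to 14 lower for colony size, 8 and 8 to 10 for passage in large colonies, 5 to 8 and 7 to 10 for PDGF-AB, 21 to 27 and 6 for passage in treated small colonies, 34 to 35 and 8 at passage 15, and 20 to 26 and 10 to 11 for the difference. Over all single-gene values, 115 lost a call and 51 gained one, 20 of the losses under cyclic loess. Among these were the colony size call of Col27a1 (adjusted p = 0.0577) and the PDGF-AB calls of Col11a1 (adjusted p = 0.148) and Col6a5 (adjusted p = 0.0744). With the replicate block the PDGF-AB fall of Col11a1 (-0.24) lost its call (adjusted p = 0.0573) and the difference of passage changes of Col9a2 (0.32) gained one (adjusted p = 0.0445), and it changed no other collagen call. With 3 arrays a group, RMA values and no detection calls, small changes of collagens near background are the least certain.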
